A study of Homo sapiens with 6 samples.

Results

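Collagens are the structural proteins of the extracellular matrix, built from alpha chains that wind around each other in threes through long Gly-X-Y repeats. The chains described here are all rows of the deposited count table whose symbol has the form COL, a number, A and a number. There are 44 such chains among 61155 symbols, and 25 of them had enough counts to be tested among 16633 tested genes. The libraries are RNA of MDA-MB-231, an invasive, mesenchymal breast cancer cell line, with or without knockdown of VASP, a protein that promotes actin filament growth. One group of 3 libraries came from cells given a control reagent (plko in the titles, a negative control siRNA in the characteristics). The other group of 3 came from cells given a reagent against VASP (shVASP in the titles, VASP siRNA in the characteristics). All cells were grown with 10% serum and insulin, were transfected with Lipofectamine 2000, and were harvested 48 hours later. How many reagents against VASP were used, and with which sequences, is not given in the sources used here, and nothing states that the libraries came from separate cultures. The control columns of the table all extend the title of the same control sample by a further number, so they may be repeats of 1 culture, and their spread may understate that between cultures.

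Fibrillar collagens such as types I, III and V form the tensile fibrils of connective tissue. Type IV chains make the meshwork of basement membranes, type VI chains make beaded microfilaments, type VII chains make the anchoring fibrils below epithelia, and type VIII chains make short-chain networks. FACIT collagens sit on the surface of fibrils, transmembrane collagens are single-pass surface proteins, and multiplexins carry the precursors of fragments such as endostatin. In tumours, most fibrillar collagen is laid down by stromal fibroblasts, while carcinoma cells can make basement membrane, transmembrane and fibril-associated chains themselves.

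VASP itself went from 164 ± 9.04 to 12.7 ± 0.355 CPM (CPM are counts scaled by TMM to the same nominal library size; mean ± SD, n = 3 in each group), 12.9-fold lower. Libraries held 28856610 to 30055503 counts. The 8 genes listed as markers of MDA-MB-231 were all present, at a summed 6321 to 6360 CPM in control and 6173 to 6295 CPM in knockdown libraries. Among them EGFR rose (log2 change 0.24, adjusted p = 0.0012) and KRT7 fell (-0.30, adjusted p = 3.8e-05). Of the 7 fibroblast markers, DCN and LUM had no count in any library, and the list summed to 0.657 to 1.27 CPM in control and 0.817 to 1.18 CPM in knockdown libraries. Leukocyte markers summed to 2.35 to 3.07 and 1.53 to 2.97 CPM, and endothelial markers to 6.84 to 7.37 and 6.16 to 6.30 CPM, with KDR, PECAM1 and CD14 alone above 1 CPM in these lists. PECAM1, an endothelial marker, fell from 2.82 ± 0.315 to 2.05 ± 0.311 CPM (adjusted p = 0.026), and its part in any change of the chains was not tested. The 7 luminal breast markers, listed as low in this line, summed to 118 to 124 CPM in control and 107 to 115 CPM in knockdown libraries. Most of this was ERBB2, which fell from 107 ± 2.09 to 97.8 ± 3.70 CPM (adjusted p = 0.035), with FOXA1 at 6.46 and EPCAM at 6.42 CPM in control, while PGR and CDH1 had at most 3 counts in any library. Bulk RNA cannot separate fewer cells making a transcript from less transcript per cell.

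The collagen transcripts of these cells came from a few chains. All 44 chains together held 1068, 1027 and 1009 CPM in the control libraries and 865, 843 and 803 CPM in the knockdown libraries, so the groups did not overlap. COL4A2, COL12A1 and COL8A1 made up 56.4 ± 1.40% of this sum in control and 50.6 ± 0.467% in knockdown (SD, n = 3). Per kilobase of merged exon, which allows a comparison between genes, the transmembrane collagen COL13A1 stood highest, at 21.8 ± 0.947 CPM per kilobase in control and 19.9 ± 0.362 in knockdown. In control libraries it was followed by COL8A1 (18.2 ± 0.383), COL12A1 (15.1 ± 1.29), COL6A1 (14.2 ± 1.00), COL4A2 (11.6 ± 0.0928) and COL6A2 (10.7 ± 0.573). COL12A1 and COL6A1 lay within each other's spread, whereas COL13A1, COL8A1 and COL12A1 were separated by more than their SDs. COL4A1 (4.51 ± 0.0882), COL9A2 (3.28 ± 0.281), COL18A1 (3.08 ± 0.309) and COL7A1 (2.29 ± 0.214) completed the 10 highest, and of these COL9A2 and COL18A1 did not differ beyond their SDs. In knockdown libraries COL8A1 stood at 10.4 ± 0.0881 CPM per kilobase, below COL6A1 (13.9 ± 1.02) and COL12A1 (13.3 ± 0.360) and within the spread of COL6A2 (10.96 ± 1.16). The 3 lowest tested chains were COL24A1, COL4A6 and COL6A3, at 0.0205 to 0.0492 CPM per kilobase in control. The merged exon length of a symbol includes every annotated transcript, so chains with many long partial transcripts are set too low on this scale. The order depended on the length used: per kilobase of the longest coding transcript, over all 6 libraries, COL13A1 (38.5) was followed by COL4A2 (29.5), COL8A1 (23.5), COL6A1 (17.7), COL6A2 (16.8) and COL12A1 (15.2).

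**Figure D1:**
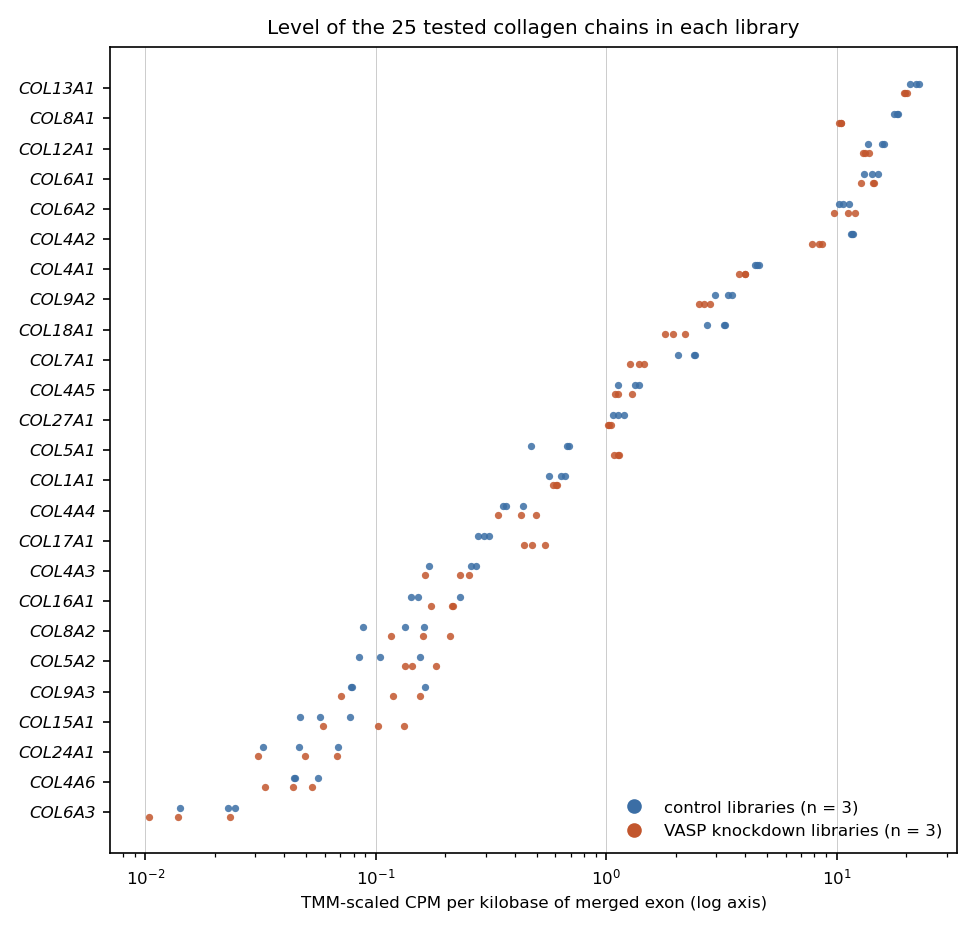
Each dot is a library, placed at the TMM-scaled CPM per kilobase of merged exon (log axis) of a chain; blue dots are the 3 control and orange dots the 3 knockdown libraries. The 25 tested chains are ordered by their mean, from COL13A1, near 20 CPM per kilobase, down to COL6A3, near 0.02.

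Of the 25 tested chains, 8 fell and 2 rose at an edgeR adjusted p under 0.05, 40% in all, where 37.2% of all tested genes passed. The share of chains that passed was therefore near that of all genes. Split by direction, 32% of the tested chains fell against 18.3% of all genes, and 8% rose against 18.9%. The groups did not overlap in 10 of the 25 chains (8 lower, 2 higher), against 47.6% of all genes (23.5% lower, 24.1% higher). DESeq2 and limma-voom also called 2 chains higher and 8 lower. DESeq2 called 37% (19.5% higher, 17.5% lower) of the 14053 genes to which it gave an adjusted p. It gave none to some weak chains, COL8A2 and COL24A1 among them. With limma-voom, 36.9% (18.9% higher, 18.1% lower) of all 16633 tested genes were called. The median log2 change (the log2 fold change of knockdown against control, here and below) of the tested chains was -0.11, beside -0.01 over all genes. Among chains past the threshold, changes of 1.5-fold or more were seen in 3 that fell (COL8A1, COL7A1 and COL18A1) and 2 that rose (COL5A1 and COL17A1). COL15A1 was 1.61-fold higher but did not pass. Over all genes, 3.86% passed the threshold and fell by that much, and 1.35% passed and rose by that much. Against a null of a 1.2-fold change, 4 chains fell (COL4A2 beside those 3) and the same 2 rose, while 5.73% of all genes passed (3.78% lower, 1.95% higher).

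**Figure D2:**
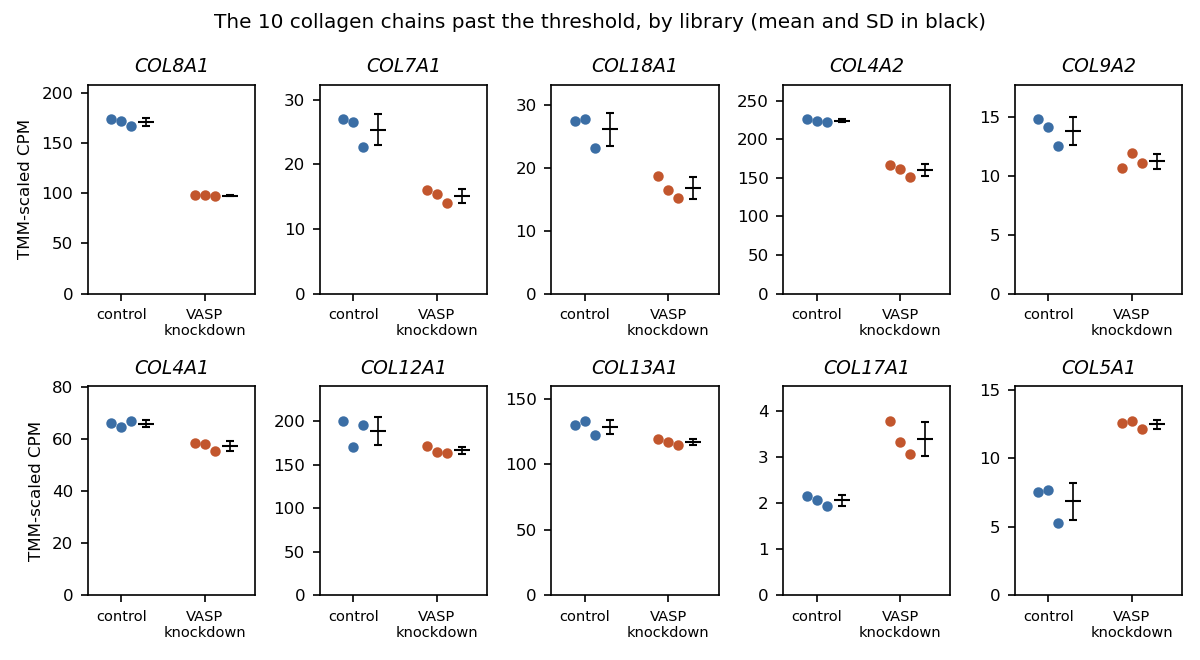
TMM-scaled CPM of the 10 chains past the threshold, each panel with its own axis from 0; dots are single libraries, and the black mark and bar are the mean and SD of 3. In 9 of the 10 panels the groups do not overlap, and in COL12A1 the control dots reach down into the knockdown dots.

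COL8A1 encodes the alpha 1 chain of type VIII, a short-chain network collagen of vessel walls and the basement membrane of the cornea. It lies on GRCh38 chromosome 3 from 99638475 to 99799226, plus strand (ENSG00000144810). COL8A1 had 173, 172 and 167 CPM in the control libraries and 98.2, 97.8 and 96.6 CPM in the knockdown libraries. All knockdown libraries lay within 2 CPM of each other, far below the lowest control. COL8A1 fell 1.75-fold (log2 change -0.81 ± 0.05 SE, adjusted p = 3.1e-12). Its share of all collagen CPM went from 16.5 ± 0.259% to 11.7 ± 0.344%. Its partner COL8A2 was weak, at 0.597 ± 0.175 and 0.759 ± 0.218 CPM, and did not pass (log2 change 0.34 ± 0.29 SE, adjusted p = 0.37).

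COL7A1 encodes the chain of type VII collagen, the anchoring fibril that ties epithelial basement membrane to the tissue beneath. It lies on chromosome 3 from 48564073 to 48595267, minus strand (ENSG00000114270). COL7A1 stood at 27.0, 26.5 and 22.6 CPM in control and at 16.1, 15.4 and 14.0 CPM in knockdown. The groups were apart, with control library 3 the lowest of its group. COL7A1 fell 1.67-fold (log2 change -0.74 ± 0.08 SE, adjusted p = 1.1e-07).

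COL18A1, a multiplexin of basement membranes whose C-terminal fragment is endostatin, lies on chromosome 21 from 45405165 to 45513720, plus strand (ENSG00000182871). Its levels were 27.5, 27.7 and 23.1 CPM in control and 18.6, 16.5 and 15.2 CPM in knockdown. It fell 1.55-fold (log2 change -0.64 ± 0.08 SE, adjusted p = 4.3e-06), with no overlap between the groups. Of its merged exon bases, 18.5% also belong to exons of SLC19A1, a folate transporter gene, and fragments on both genes are left uncounted by featureCounts unless an option is set, of which the header shows none. SLC19A1 had 12, 17 and 14 counts in control and 17, 8 and 7 in knockdown, too few to show a change (adjusted p = 0.32). The other multiplexin, COL15A1, had 9 to 15 counts in control and 12 to 26 in knockdown and did not pass (log2 change 0.68 ± 0.33 SE, adjusted p = 0.11). Without knockdown library 1, COL15A1 passed, at a log2 change of 0.95 (adjusted p = 0.033).

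All 6 type IV chains were tested, and 2 fell. COL4A2 (chromosome 13, 110305812 to 110513209, plus strand, ENSG00000134871) had the highest CPM of any chain, with 226, 224 and 222 CPM in control and 167, 161 and 151 CPM in knockdown. The groups were far apart, and COL4A2 fell 1.40-fold (log2 change -0.49 ± 0.05 SE, adjusted p = 5.2e-08). COL4A1 (chromosome 13, 110148963 to 110307157, minus strand, ENSG00000187498), whose chain joins that of COL4A2 in the common type IV trimer, had 66.4, 64.6 and 67.1 CPM in control and 58.6, 58.3 and 55.3 CPM in knockdown. COL4A1 also fell without overlap, 1.15-fold (log2 change -0.20 ± 0.05 SE, adjusted p = 0.0030). The ratio of COL4A2 to COL4A1 per kilobase was 2.59, 2.63 and 2.52 in control and 2.17, 2.10 and 2.08 in knockdown, a change of -0.29 on the log2 scale. The ratios did not overlap between the groups. This separation gave an exact two-sided permutation p of 0.10, the smallest that 3 against 3 libraries allow, and 0.40 after adjustment over the 4 ratios computed. The test could not pass 0.05 with these libraries, so it cannot decide whether both changes differ. With a correction for GC content and length, described below, the log2 changes were nearer, at -0.28 for COL4A2 and -0.10 for COL4A1. COL4A5, at 13.3 to 16.4 CPM in control and 13.0 to 15.3 in knockdown, did not pass (adjusted p = 0.28). COL4A3, COL4A4 and COL4A6, the chains of specialised basement membranes such as those of kidney and lung, stood below 5 CPM in every library and did not pass either (log2 changes -0.11, 0.12 and -0.16, SE 0.14 to 0.32).

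The type IV genes lie head to head in pairs, and the pair on chromosome 13 is the one in which both members fell. In RefSeq annotation of GRCh38.p14 the starts of COL4A1 and COL4A2 are 127 bases apart, those of COL4A3 and COL4A4 are 419 apart, and those of COL4A5 and the nearer start of COL4A6 are 380 apart. The window around the COL4A2 start (chr13:110307034-110307333, plus strand) therefore holds both starts, COL4A1 at position 124 pointing left and COL4A2 at position 251 pointing right. It is shown because a single stretch of DNA holds the starts of both genes. Capitals mark matches, on either strand, to 7 short motifs: the GC box, spelled GGGCGG, the box spelled CCAAT, and the TATA box, spelled TATAAA. Also searched were the AP-1 site, spelled TGANTCA, the TEAD site, spelled GGAATG, the SMAD site, spelled CAGAC, and the CArG box of SRF. No motif contains another.

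COL4A2: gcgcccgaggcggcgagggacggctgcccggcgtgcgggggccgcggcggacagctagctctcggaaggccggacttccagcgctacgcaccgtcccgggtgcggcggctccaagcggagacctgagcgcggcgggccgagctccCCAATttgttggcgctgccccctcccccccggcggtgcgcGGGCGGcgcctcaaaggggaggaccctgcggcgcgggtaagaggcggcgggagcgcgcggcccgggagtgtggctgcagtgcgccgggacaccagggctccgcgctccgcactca

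Between both starts lie a CCAAT box at position 146 and a GC box at position 186, and none of the other motifs matched in this window. The shares of all 35116 RefSeq windows of this length with a match were 45.0% for the GC box, 34.6% for the CCAAT box and 11.5% for the TATA box.

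Of the 10 FACIT chains 4 were tested, and 2 fell. COL12A1, which decorates type I fibrils and is a large matrix protein of tendon and tumour stroma, had 201, 171 and 196 CPM in control and 172, 165 and 163 CPM in knockdown. Control library 2 fell inside the knockdown range, so the groups overlapped. The change of COL12A1 was small (1.14-fold lower, log2 change -0.18 ± 0.05 SE, adjusted p = 0.010). It no longer passed without control library 1 (adjusted p = 0.072) or without knockdown library 2 (adjusted p = 0.054). COL9A2, a chain of the cartilage collagen type IX, fell 1.23-fold, from 14.8, 14.2 and 12.5 CPM to 10.6, 11.9 and 11.1 CPM (log2 change -0.30 ± 0.08 SE, adjusted p = 0.0068). COL16A1 and COL9A3 were weak and did not pass (log2 changes 0.20 and 0.11, SE 0.19 and 0.34).

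The 2 tested transmembrane collagens went in opposite directions. COL13A1, a collagen of adhesion sites and neuromuscular junctions, had 130, 133 and 122 CPM in control and 119, 117 and 115 CPM in knockdown. The groups were apart by a narrow margin, and COL13A1 fell 1.10-fold (log2 change -0.14 ± 0.05 SE, adjusted p = 0.028). That call was lost without any single library other than control library 3 (adjusted p = 0.052 to 0.12) and without a low-count filter (adjusted p = 0.11). COL17A1 (chromosome 10, 104031286 to 104085880, minus strand, ENSG00000065618), the hemidesmosomal antigen BP180 of basal keratinocytes, had 2.16, 2.07 and 1.94 CPM in control and 3.78, 3.31 and 3.06 CPM in knockdown. Expression of COL17A1 rose 1.65-fold (log2 change 0.72 ± 0.15 SE, adjusted p = 4.7e-04), and every knockdown library was above every control. Its level stayed low, at 56 to 63 counts in control and 90 to 116 in knockdown. COL25A1 and COL23A1, the other 2 of this class, had at most 5 counts in a library.

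Of the 11 fibrillar chains 5 were tested, and 1 changed. COL5A1 encodes the alpha 1 chain of type V, a collagen that seeds and limits the diameter of type I fibrils, and lies on chromosome 9 from 134641774 to 134844843, plus strand (ENSG00000130635). COL5A1 had 7.57, 7.69 and 5.29 CPM in control and 12.6, 12.8 and 12.1 CPM in knockdown. Control library 3 was the lowest, and the knockdown libraries lay close together above all controls. COL5A1 rose 1.82-fold (log2 change 0.87 ± 0.11 SE, adjusted p = 2.6e-06), the largest increase among the tested chains. COL5A2, which joins COL5A1 in the type V trimer, stood at 0.838 ± 0.269 and 1.12 ± 0.188 CPM and did not pass (log2 change 0.43 ± 0.24 SE, adjusted p = 0.18). The ratio of COL5A2 to COL5A1 per kilobase was 0.190 ± 0.0570 in control and 0.138 ± 0.0225 in knockdown, with overlap between the groups (exact permutation p = 0.30, 0.40 after adjustment).

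Type I collagen was represented by a single chain. COL1A1 had 161 to 188 counts in every library and did not change beyond its error (6.11 ± 0.480 and 5.89 ± 0.144 CPM, log2 change -0.05 ± 0.10 SE, adjusted p = 0.74). COL1A2, the other chain of the usual type I trimer, had 0, 0 and 0 counts in control and 1, 1 and 0 in knockdown, below the floor of 3 counts per library. COL3A1, which accompanies type I in soft tissue, had 4 to 12 counts per library and was not tested. It reached the filter's minimum count of 10 only in control library 2. Its total was 43 counts, where COL6A3, the tested chain with the lowest total, had 63. COL27A1, a fibrillar collagen of cartilage, stood at 15.7, 16.8 and 14.9 CPM in control and 14.3, 14.7 and 14.4 CPM in knockdown. Its groups did not overlap, yet its log2 change of -0.13 (SE 0.07) did not pass (adjusted p = 0.19). COL24A1 had 9 to 19 counts in each library.

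Type VI collagen showed abundant transcripts of COL6A1 and COL6A2 and hardly any of COL6A3, whose product completes the usual type VI trimer. COL6A1 had 81.0, 75.9 and 70.3 CPM in control and 77.8, 76.8 and 67.9 CPM in knockdown. COL6A2 had 60.7, 56.7 and 54.6 CPM in control and 64.3, 59.6 and 52.0 CPM in knockdown. The groups overlapped for both, and neither passed (log2 changes -0.03 and 0.03, SE 0.06 and 0.07, adjusted p = 0.73 and 0.74). COL6A3 had 8 to 14 counts in control and 6 to 14 in knockdown. Per kilobase, COL6A3 stood at 0.00143 ± 0.000311 of the level of COL6A1 in control and 0.00114 ± 0.000440 in knockdown (exact permutation p = 0.50, 0.50 after adjustment). The ratio of COL6A2 to COL6A1 was 0.757 ± 0.0166 and 0.788 ± 0.0324, with overlap (exact permutation p = 0.30, 0.40 after adjustment). COL6A5 and COL6A6, relatives of COL6A3, had at most 3 counts in a library.

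**Figure D3:**
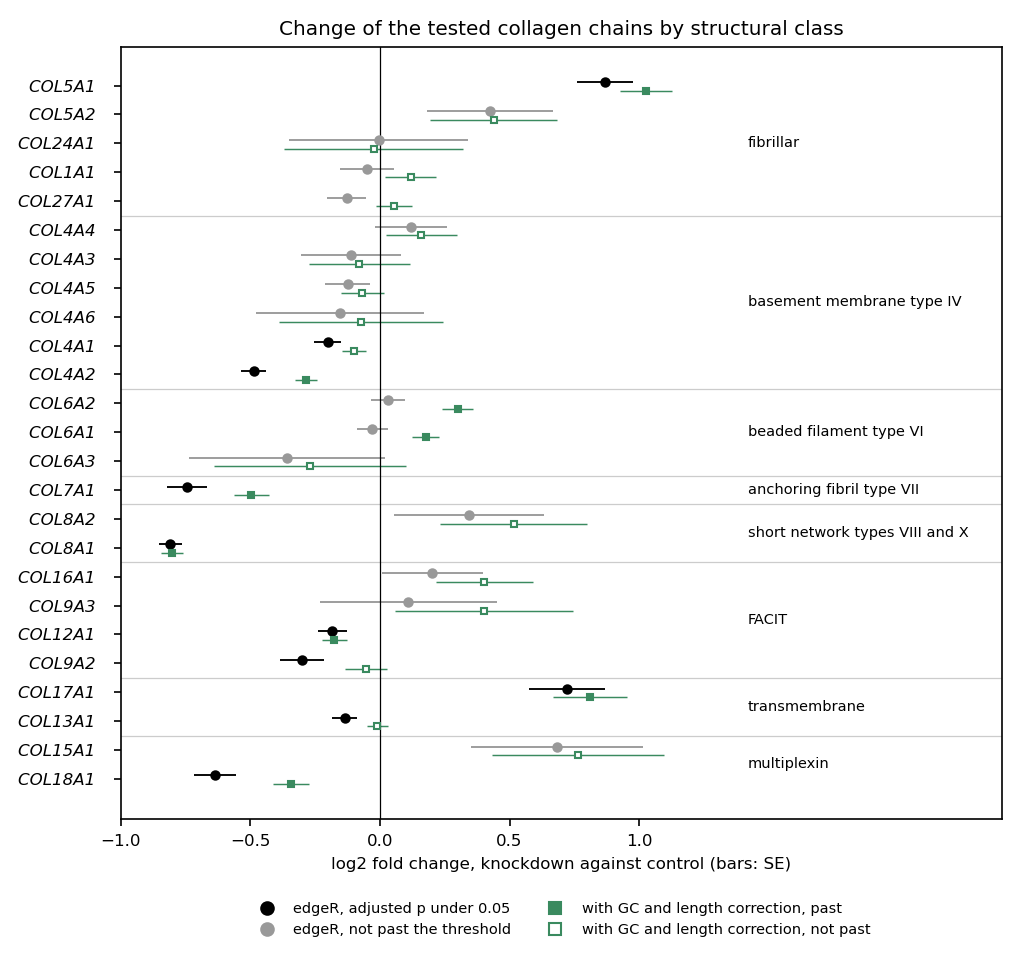
Log2 fold change (knockdown against control) of the 25 tested chains with its SE, grouped by structural class; round marks are the edgeR fit and green squares the same fit with a correction for GC content and length, filled where the adjusted p was under 0.05. COL8A1, COL7A1, COL18A1 and COL4A2 lie clearly to the left and COL5A1 and COL17A1 to the right in both fits, while COL6A1 and COL6A2 move from near 0 to above 0 with the correction.

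The 19 untested chains had at most 12 counts in any library and 158 in all. COL22A1 and COL5A3 had none, 10 others had 10 or fewer over the 6 libraries, and 7 had more. These 7 were COL3A1 (43), COL25A1 (22), COL19A1 (21), COL14A1 (13), and COL10A1, COL20A1 and COL28A1 (11 each). The 10 were COL1A2, COL2A1, COL6A5, COL6A6, COL9A1, COL11A1, COL11A2, COL21A1, COL23A1 and COL26A1. COL11A2 lies on 6 further sequences of the annotation, so fragments with several alignments may have been lost there. Depth limited the weak chains: SEs were 0.05 to 0.09 for the 12 chains at 10 CPM or more, and 0.24 to 0.38 for the 7 tested chains under 1 CPM. Of the 10 chains that passed, 8 stood at 10 CPM or more and none under 1 CPM, so smaller changes of the weak chains were not detectable at this depth.

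Changes in these libraries moved with GC content, and collagen transcripts are rich in glycine and proline codons, which are rich in G and C. Across 16369 tested genes with a GC value the Spearman correlation of log2 change with GC content was -0.42, genes not being independent replicates. The tested chains had a median GC content of 59.0%, ranging from 45.1% (COL24A1) to 67.4% (COL9A3), against 48.1% over all tested genes. Across the 25 chains the same correlation was -0.05, a description of genes measured in the same libraries. With a correction for GC content and length, 5 chains fell and 4 rose (20% and 16%), where 29.6% of all genes passed (11.9% lower, 17.7% higher). Of the 10 calls, 7 were made in the same direction in both fits: COL8A1, COL7A1, COL18A1, COL4A2 and COL12A1 lower, COL5A1 and COL17A1 higher.

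COL8A1, with 46.8% GC, was hardly altered by the correction (log2 change -0.80, adjusted p = 2.0e-11). The GC-rich chains that fell were moved more: COL7A1 (64.8% GC) went to -0.50, COL18A1 (67.2%) to -0.34 and COL4A2 (62.0%) to -0.28 (adjusted p = 1.7e-05, 9.0e-04 and 5.8e-05). COL4A1, COL9A2 and COL13A1 no longer passed, at log2 changes of -0.10, -0.05 and -0.01 (adjusted p = 0.11, 0.66 and 0.87). COL5A1 (60.3% GC) and COL17A1 (55.9%) lay further from 0 after the correction, at 1.03 and 0.81 (adjusted p = 2.7e-07 and 2.5e-04). COL6A1 and COL6A2 passed as higher with it, at 0.18 and 0.30 (adjusted p = 0.017 and 9.1e-04), and COL6A1 changed sign. The median of the chains went to -0.01, beside 0.03 over all genes. How far GC content itself accounts for any chain's change was not tested.

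**Figure D4:**
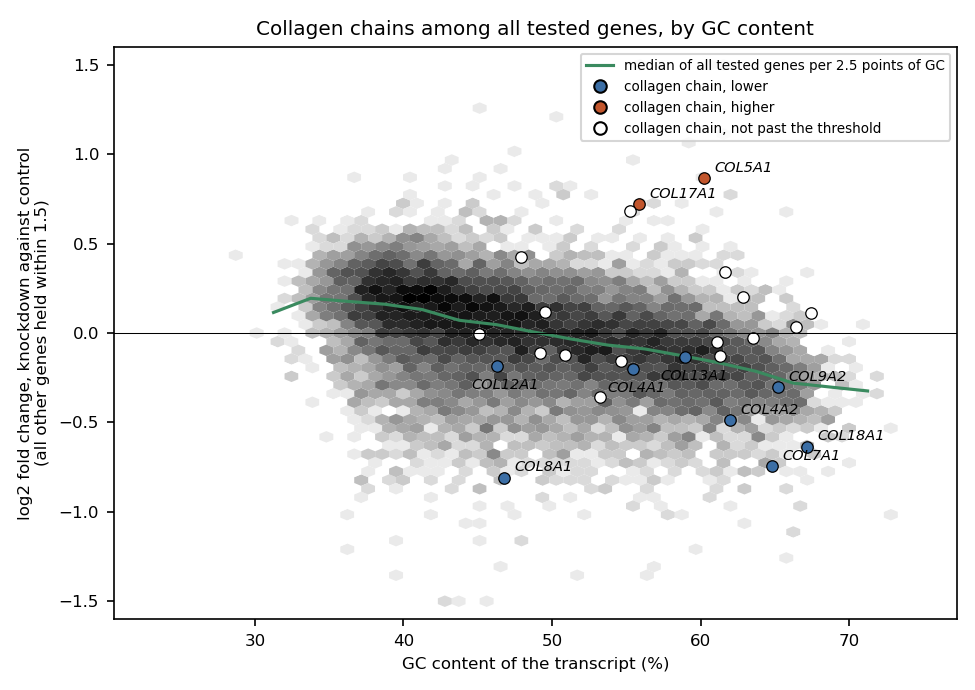
Log2 fold change (knockdown against control) against the GC content of the transcript for all tested genes (grey, darker where more genes lie, held within 1.5) with their median per bin of GC content (green line), and the 25 tested chains as dots. COL8A1, at 46.8% GC, lies far below the line, COL5A1 and COL17A1 lie far above it, and COL9A2 and COL13A1 lie near it.

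The promoters of COL7A1, COL5A1 and COL17A1 are printed because these chains changed most among those with a RefSeq window and a single start region, COL7A1 down and the others up. Each runs from 250 bases before the start to 50 after, on the gene's own strand, with capitals as above. They lie at chr3:48595280-48595579 (minus strand), chr9:134641553-134641852 (plus strand) and chr10:104085831-104086130 (minus strand) of GRCh38.p14.

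COL7A1: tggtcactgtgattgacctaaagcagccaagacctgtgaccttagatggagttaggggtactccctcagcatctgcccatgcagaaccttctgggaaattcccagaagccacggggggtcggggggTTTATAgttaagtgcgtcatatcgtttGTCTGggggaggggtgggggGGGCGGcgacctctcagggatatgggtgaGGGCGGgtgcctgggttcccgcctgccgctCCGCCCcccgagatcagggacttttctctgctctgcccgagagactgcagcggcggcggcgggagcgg
COL5A1: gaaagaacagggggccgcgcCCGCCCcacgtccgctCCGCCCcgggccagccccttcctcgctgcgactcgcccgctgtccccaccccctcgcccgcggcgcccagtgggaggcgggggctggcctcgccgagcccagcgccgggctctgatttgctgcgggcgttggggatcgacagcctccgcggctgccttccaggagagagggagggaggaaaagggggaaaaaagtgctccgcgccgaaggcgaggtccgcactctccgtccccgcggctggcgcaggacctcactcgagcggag
COL17A1: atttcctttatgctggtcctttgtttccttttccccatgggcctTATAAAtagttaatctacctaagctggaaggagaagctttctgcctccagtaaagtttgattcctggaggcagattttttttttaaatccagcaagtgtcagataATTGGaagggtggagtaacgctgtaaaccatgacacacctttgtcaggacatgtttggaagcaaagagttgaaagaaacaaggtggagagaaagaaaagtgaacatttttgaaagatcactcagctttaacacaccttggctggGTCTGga

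The COL7A1 window holds a match to the TATA spelling at position 127, on the opposite strand. It also holds a SMAD motif at 154 and GC box matches at 174, 203 and 233. The COL5A1 window holds GC box matches at 21 and 37 and no match to the TATA spelling. The COL17A1 window holds a match to the TATA spelling at 45, a CCAAT match at 150 and a SMAD motif at 294. With 40.7% GC it is poorer in GC than that of COL7A1 (62.3%) or COL5A1 (74.0%). Whether any of these matches acts as a promoter element was not tested. The 24 windows found for tested chains included 17 with a GC box (70.8%, against 45.0% of all windows), 10 with the SMAD motif (41.7% against 45.3%) and 5 each with a TATA box (20.8% against 11.5%) or a CCAAT box (20.8% against 34.6%). The TEAD motif was found in 1 (that of COL12A1, 4.17% against 14.0%), and AP-1 and CArG motifs in none (7.71% and 1.29% of all windows). Such matches are letters in a short window, several windows belong to a single gene or overlap, and they show no binding. The windows of all genes include genes not tested here, so both sets of windows are unlike. COL8A1 had no window.

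Genes that modify, fold and crosslink collagen chains were described through lists of pathway members. Collagen prolines and lysines are hydroxylated, and hydroxylated lysines are glycosylated, in the endoplasmic reticulum before the helix forms. Of 14 tested genes of this list, 11 fell and 1 rose (85.7% called, against 37.2% of all genes), with a median log2 change of -0.25. Those with the smallest p were the prolyl 3-hydroxylases P3H2 (-1.39) and P3H3 (-0.66), the galactosyltransferases COLGALT1 (-0.61) and COLGALT2 (-0.43), and the lysyl hydroxylases PLOD1 (-0.43) and PLOD3 (-0.28), all lower. The single gene that rose was another lysyl hydroxylase, PLOD2 (0.18, adjusted p = 0.0062), named here after its values were seen. After the GC and length correction 8 fell and none rose, where 11.9% of all genes fell and 17.7% rose. PLOD3 then no longer passed (-0.11, adjusted p = 0.051). Of 24 tested genes for folding and export of procollagen, 9 fell and 4 rose (54.2%), with a median of -0.03. For each list in this paragraph, the share called over all genes before the correction was 37.2% (18.3% lower, 18.9% higher). With the correction 7 genes for folding and export fell and 4 rose. The endoplasmic reticulum isomerase FKBP9 fell by 1.63 on the log2 scale and FKBP10, another of that family, by 0.523. The transcription factor CREB3L2 (-0.53), the translocation protein TRAM2 (-0.39) and the chaperone CALR (-0.36) also fell. CUL3, which with KLHL12 enlarges transport vesicles for procollagen, rose (0.33).

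After export, propeptides are cut and fibrils are crosslinked by lysyl oxidases. Of 13 tested genes for these steps, 7 fell and 1 rose (61.5%, median -0.36). For each list in this paragraph, the share called over all genes was 37.2% (18.3% lower, 18.9% higher). The transglutaminase TGM2 (-0.54), the lysyl oxidase LOX (-0.51), the type IV crosslinking peroxidase PXDN (-0.50), the convertase FURIN (-0.38) and the procollagen C-proteinase BMP1 (-0.35) fell, and LOXL4 rose (0.60). With the GC and length correction BMP1 no longer passed (-0.16, adjusted p = 0.078). LOXL2, with the highest CPM of the tested genes for these steps, is named after its values were seen. It did not pass (352 ± 14.1 and 346 ± 10.0 CPM, log2 change -0.03, adjusted p = 0.69). Of 8 tested fibril organisers, 3 fell and 2 rose (62.5%, median -0.15): FBLN1 (-0.89), FN1 (-0.83) and THBS1 (-0.36) were lower, and FMOD (1.03, from 0.918 CPM) and MATN2 (0.15) higher. The count of organisers that rose was 1 without control library 1 or 2 or knockdown library 2 or 3, and with upper-quartile scaling or DESeq2. Partners of type IV collagen in basement membrane had 8 of 12 lower and 1 higher (75%, median -0.34). AGRN (-0.84), LAMB3 (-0.53), LAMA4 (-1.31, from 3.42 CPM), LAMA5 (-0.49) and LAMA1 (-0.41) fell, and LAMB1 rose (0.23). With the correction, 6 of these partners fell and 1 rose, where 11.9% of all genes fell and 17.7% rose. The change of LAMA5 was then -0.20.

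Collagen receptors had 4 of 13 lower and 1 higher (38.5%, median -0.09), near the share of all genes (37.2%). ITGA2, the alpha 2 subunit that pairs with beta 1 integrin to bind collagen, rose (0.33), whereas ITGA1 (-0.27), ITGA3 (-0.32), the endocytic receptor MRC2 (-0.63) and LRP1 (-0.26) fell. The count of receptors that fell was 2 without control library 1, and LRP1 no longer passed with the GC and length correction (-0.09, adjusted p = 0.31). Collagen-degrading enzymes and inhibitors had 5 of 13 lower and 1 higher (46.2%, median -0.09): the collagenase MMP14 (-0.44), MMP15 (-0.41), the cathepsins CTSB (-0.23) and CTSK (-0.39) and the inhibitor TIMP2 (-0.18) fell, and TIMP3 rose (0.44). MMP15 and TIMP2 did not pass with the correction, and 3 members fell and 2 rose there. MMP1, with the highest CPM of the tested members, is also named after its values were seen. It did not pass (1260 ± 119 and 1261 ± 103 CPM, log2 change 0.0009, adjusted p = 0.99). The list of transcription factors and other regulators of collagen genes had 5 of 22 lower and 5 higher (45.5%, median 0.04). NFE2L2 (0.33), SP3 (0.23) and TEAD1 (0.20) rose. The inhibitory SMAD protein SMAD7 (-0.35), CEBPB (-0.23) and SRF (-0.18) fell. TEAD1, CEBPB and SRF did not pass with the correction (0.12, 0.05 and -0.02, adjusted p = 0.055, 0.46 and 0.78). The count of factors that rose was 2 without control library 2, and the count that fell was 3 without knockdown library 2. Under the 1.2-fold null none of these factors and no receptor passed.

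The 6-base word GTCGTC was sought because genes carrying it in the 3′ UTR had fallen more often in earlier results of these data. Among tested genes with an annotated 3′ UTR, 40.8% of 683 with the word there fell, against 28.2% of 1846 with it elsewhere in the transcript and 17.6% of 10115 without it. Because the word was chosen from these same data, these shares restate that choice and give no separate support for it. They were not adjusted for GC content. Elsewhere in the transcript the word was carried by COL12A1, COL6A1, COL27A1, COL1A1, COL4A3, COL5A2, COL24A1 and COL6A3. Of these chains only COL12A1 passed the threshold. None of the 25 tested chains carried the word in the 3′ UTR, where 5.40% of all tested genes with an annotated 3′ UTR did. With so few chains this does not set them apart from other genes. Of all tested pathway genes, COLGALT1, FKBP9, CREB3L2, TRAM2, AGRN and SMAD2 (-0.15, adjusted p = 0.017), which fell, carried it there. So did KLHL12 (-0.02, adjusted p = 0.78) and MRTFA (0.004, adjusted p = 0.97), which did not pass. The part of the word in these changes was not tested.

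**Figure D5:**
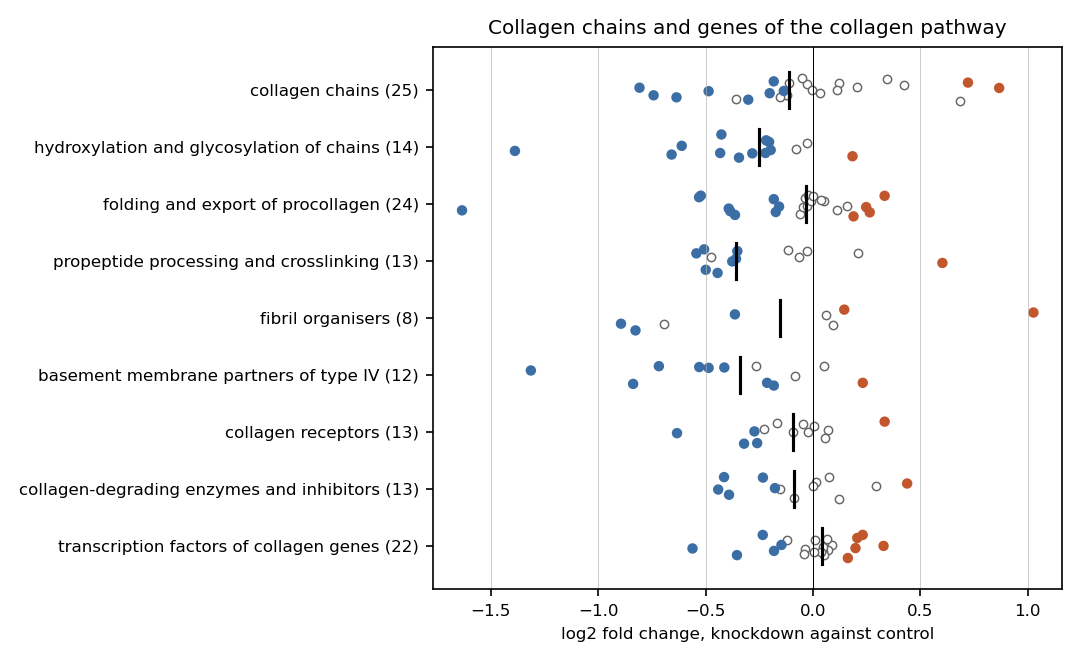
Log2 fold change (knockdown against control) of each tested gene, by list, with the number tested in brackets; filled dots passed the threshold (blue lower, orange higher), open dots did not, and the black bar is the list's median. The dots of the hydroxylation list lie mostly left of 0, with P3H2 at -1.39, and the collagen chains spread from -0.81 to 0.87.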

How the data were processed

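RNA of 3 control and 3 VASP knockdown libraries was analysed. The authors deposited raw fragment counts for each gene symbol, made with featureCounts 1.6.4 over GENCODE release 32 exons, per the file headers. Trim Galore 0.6.4, STAR 2.7.1a and build hg38 are named in the submitters' processing notes. No option for strand, multi-mapping or overlapping genes appears in the file header. Control columns name the group but not the sample, so control library numbers are table order only. Within groups every pair of libraries differed by more than sampling noise (chi-square over its degrees of freedom 5.63 to 9.63), so each counted as 1 replicate. Nothing states separate cultures, so p-values measure the spread between libraries, which may be technical.

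Genes passing filterByExpr were scaled by TMM and tested with edgeR 4.0.16 under R 4.3.3 (robust quasi-likelihood, two-sided, a single group term), with Benjamini-Hochberg adjustment over all 16633 tested genes and a threshold of 0.05. An SE is the log2 fold change divided by the square root of F. The methods were tested on simulated data. GC content came from the longest coding transcript in GENCODE release 29. The correction fitted, per library, splines with 5 degrees of freedom of GC content and merged exon length. RLE and upper-quartile scaling, DESeq2 1.42.0, limma-voom 3.58.1, a 1.2-fold null, other filters and leaving out each library were also tried. Chains, lists and tests were chosen with earlier results of these data known. The windows came from RefSeq GRCh38.p14, where 20 of the 25 tested chains matched by symbol. Every tested chain is named, and of each list up to 6 members past the threshold with the smallest p.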

Additional observations from a re-analysis of the deposited data

How the results depend on the processing

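The count of 2 chains that rose and 8 that fell was the same with RLE scaling, upper-quartile scaling, DESeq2, limma-voom and a filter of 1 CPM in 3 libraries, and 7 fell without a low-count filter. With the GC and length correction 4 rose and 5 fell, with COL6A1 turning to 0.18, and with a 1.2-fold null 4 fell. Leaving out each library in turn gave 2 to 3 chains that rose and 6 to 8 that fell. Over all genes, 3148 rose and 3039 fell, with 324 and 629 under the 1.2-fold null and 1944 that fell under the GC and length correction. Leaving out a library gave 2238 to 3249 that rose and 2243 to 3150 that fell. The change of the log2 ratio over the same omissions was -0.30 to -0.27 for COL4A2 to COL4A1, 0.02 to 0.08 for COL6A2 to COL6A1, -0.67 to -0.09 for COL6A3 to COL6A1 and -0.71 to -0.28 for COL5A2 to COL5A1. COL8A1, COL7A1, COL18A1, COL4A2, COL5A1 and COL17A1 kept their call and direction in all 14 alternatives. No paired analysis was possible because the control columns carry no replicate number of the labels. Of the list counts, 197 stayed within 1.5 times and 27 moved. Under the 1.2-fold null, 4 genes fell in each of the hydroxylation, folding, crosslinking and basement membrane lists, 1 among degrading enzymes and 0 among receptors and transcription factors, while 1 fibril organiser and 0 genes of the hydroxylation, folding, basement membrane, receptor, degradation and transcription factor lists rose. With the GC and length correction, 0 genes of the hydroxylation list and 2 of the degradation list rose, and 3 of the degradation list and 2 transcription factors fell. Upper-quartile scaling and DESeq2 left 1 fibril organiser that rose. Leaving out a library gave 1 to 2 fibril organisers and 2 to 5 transcription factors that rose, and 2 to 5 receptors and 3 to 6 transcription factors that fell. A change of sign between values that passed in neither fit was not counted as a reversal. By CPM without length, 9 of the 10 highest chains were the same, and by transcript length, chosen after seeing the data, 9, though their order changed, with COL4A2 moving from rank 6 to rank 2. Why values moved was not tested.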

Other observations

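Antisense transcripts beside the collagen genes were almost silent. COL4A2-AS1 had 2, 8 and 5 counts in control and 6, 6 and 5 in knockdown, COL4A2-AS2 had 1 count in each control library and 0 in each knockdown library, and COL18A1-AS1, COL18A1-AS2 and COL5A1-AS1 had 0 or 1 count in every library. Exons of other symbols covered 0.493% of the merged exon bases of COL4A2, 0.325% of those of COL7A1 and none of those of COL8A1.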
